A study of Rattus norvegicus with 8 samples.

Results

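The BH3-only genes are the part of the BCL2 family that starts mitochondrial cell death, and 9 of them were followed here in rat thymocytes: Bcl2l11 (Bim), Bbc3 (Puma), Bid, Bad, Bik, Bmf, Hrk, Bnip3 and Bnip3l. They were found among the 18417 gene symbols of the array. The array's own gene names gave 8 of the 9 genes with 9 probes, and Hrk was found by its RefSeq accession, because both of its probes carry the older name Bid3. In all, 11 of the 41012 probes tested belong to these genes, and 9 of the 11 were well above background on all 8 arrays.

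Thymocytes came from adrenalectomized male Sprague-Dawley rats, an outbred strain whose adrenal glands, the main source of the animals' own glucocorticoid, had been removed. Their age is not given in the sources used here. The thymi of 3 animals were pooled for a preparation, and the cells were kept in culture for 6 h with no hormone added (Control, on 4 arrays) or in 100 nM of the synthetic glucocorticoid dexamethasone (Dex, on 4 arrays), so that both groups share the adrenalectomy and the culture. Their total RNA was labeled with 1 dye, Cy3, and hybridized to Agilent arrays of the rat genome. The series' design names 3 biological replicates while 4 arrays carry each label, and the labels do not say which arrays came from separate preparations, so the p-values below measure the spread between these arrays, which may be technical. The samples are bulk RNA, in which fewer cells of a type and less RNA per cell cannot be told apart.

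BH3-only proteins share a short helix, the BH3 domain, which fits into a groove on the surface of the survival proteins BCL2, BCL-XL and MCL1. By filling this groove they free the pore formers BAX and BAK, and some of them, Bim, Puma and truncated Bid, can also engage BAX and BAK directly. The pores release cytochrome c, which leads to caspase activation. In the thymus this is one of the main routes by which immature cells die, and Bim in particular is known for its role in the deletion of self-reactive thymocytes and in the death of thymocytes exposed to glucocorticoid. Bnip3 and Bnip3l stand somewhat apart, since they are mitochondrial receptors best known for mitophagy, the removal of whole mitochondria.

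Of the 9 genes, Bcl2l11 alone passed the test between Dex and Control, where it rose 3.41-fold, and it did not pass with the replicate number or the slide as a fixed block. Bmf was also higher on every Dex array than on every Control array, by 1.41 on the log2 scale, but its adjusted p of 0.0557 (limma) did not pass the threshold of 0.05. Bid was lower on every Dex array, with a log2 fold change of -0.66 that did not pass either. The values of each gene follow in the order of their roles, after the sequences behind the Bcl2l11 result.

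Each probe of this array is a single strand of 60 bases. The probe of Bcl2l11 lies at chr3:115628179-115628238 on the plus strand of rat build rn3, the build named in the scanner output, and it is shown because the only passing change among the 9 genes rests on it. The array annotates it to 3 RefSeq transcripts of the gene, so that isoforms of Bim are not separated. Bid's probe, at chr4:157542812-157542871 on the minus strand, is shown beside it as the probe of the gene that lay lower on every Dex array. Both are written in lower case because no single stretch is singled out.
Bcl2l11 probe: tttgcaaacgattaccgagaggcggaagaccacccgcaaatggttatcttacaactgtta
Bid probe: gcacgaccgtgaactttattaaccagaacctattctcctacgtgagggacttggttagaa
The longest run of letters that the Bcl2l11 probe shares with the probe of another gene of the 9 is 8 bases.

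RefSeq promoter windows of build GRCr8, from 250 bases before to 50 bases after the gene's start, were matched for 6 of the 9 genes: Bcl2l11, Bid, Bad, Bmf, Hrk and Bnip3. They were searched on both strands for AGAACA, the hexamer of the glucocorticoid receptor's site, and for GTAAACA, the core bound by forkhead factors such as FOXO3. Neither motif contains the other, though both have the same last 4 letters. AGAACA was in none of the 6 windows and in 20.7% of all 33469 promoter windows. GTAAACA was in the windows of Bcl2l11 and Bad, and in 3.78% of all windows. The 250 bases before the start of Bcl2l11, at chr3:135819792-135820041 on the plus strand of GRCr8, hold the match 204 bases before the start, and those of Bmf, at chr3:125974065-125974314 on the minus strand, hold neither motif. The promoters of these genes are printed because theirs were the 2 largest differences among the 9 genes, with the forkhead core in capitals.
Bcl2l11 promoter: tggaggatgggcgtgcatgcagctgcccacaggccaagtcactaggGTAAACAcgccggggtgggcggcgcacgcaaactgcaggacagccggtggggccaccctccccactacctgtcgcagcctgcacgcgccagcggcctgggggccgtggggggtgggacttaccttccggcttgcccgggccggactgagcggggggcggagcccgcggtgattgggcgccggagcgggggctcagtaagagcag
Bmf promoter: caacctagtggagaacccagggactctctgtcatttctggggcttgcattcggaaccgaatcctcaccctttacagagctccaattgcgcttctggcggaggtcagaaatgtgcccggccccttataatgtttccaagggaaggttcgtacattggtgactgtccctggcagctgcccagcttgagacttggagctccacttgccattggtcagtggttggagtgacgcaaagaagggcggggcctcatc
A match of letters in these windows is a description and does not show a bound site.

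Some features of the arrays bear on several genes below. The probes well above background numbered 24911 to 34476 on an array, with the lowest numbers on Dex 1 (26474) and Dex 2 (24911). An exact two-sided permutation test over the arrays gave p = 0.314 for this number between the groups. Correlations between arrays of a group were 0.975 to 0.990 in Control and 0.919 to 0.990 in Dex. The arrays lay on 3 slides, with Control 1 and Dex 3 on the first, the other Control arrays on the second and the other Dex arrays on the third, and Control 1 and Dex 3 were also scanned on another day than the other 6. Of 10 markers of double positive thymocytes, the main cell type of the thymus, 9 were on the array and all 9 were well above background on every array. Of 9 macrophage markers, 8 were well above background on every array and none passed the test, but their summed level was 9.84 to 10.24 log2 units in Control and 10.28 to 10.90 in Dex, without overlap. The markers did not move as a set. Of the 9, 5 had a log2 fold change above 0 and 4 below, from -0.77 for Cd14 to 2.12 for Mrc1. The summed level of the 8 double positive markers with a value on all arrays was 17.37 to 17.68 log2 units in Control and 17.10 to 17.53 in Dex, overlapping but lower in Dex within each of the 4 replicate numbers. This sum leaves out Cd8b, which had a missing value and a log2 fold change of 0.52 (adjusted p of 0.326, limma). Its measured Dex arrays all lay above its measured Control arrays. Of the 9 double positive markers on the array, 3 had a log2 fold change above 0 and 6 below. The summed level of erythroid markers was 8.35 to 10.40 in Control and 8.73 to 11.19 in Dex, overlapping but higher in Dex within each of the 4 numbers. The summed markers of B cells and of stromal cells overlapped between the groups. What part these cell types had in the results below was not tested.

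Bcl2l11 encodes Bim, which binds all of the main survival proteins and can engage BAX directly. The log2 signal of its probe was 5.73, 5.10, 5.30 and 5.47 on Control arrays 1 to 4, and 7.11, 7.66, 6.85 and 7.05 on Dex arrays 1 to 4. Every Dex array lay above every Control array, with a gap of more than 1 log2 unit between the groups. The means were 5.40 ± 0.27 (SD, n = 4) and 7.17 ± 0.35 (SD, n = 4). The log2 fold change was 1.77 (SE 0.23), with a 95% interval from 1.25 to 2.29 and an adjusted p of 0.0142 (limma), which placed the probe at rank 134 of the 41012 by p. As a fold change this was 3.41, with an interval from 2.38 to 4.89. With the replicate number as a block the difference was unchanged at 1.77 and its adjusted p was 0.121 (limma), so that the call was lost. The difference between arrays of the same number was 1.38, 2.56, 1.55 and 1.58 log2 units for replicates 1 to 4. All 4 of these differences therefore ran the same way, as did both scan days. The labels do not say whether arrays of one number came from one preparation. Among the 6 arrays scanned on the same day the log2 fold change was 1.98 with an adjusted p of 0.0676 (limma), which did not pass, and Dex 3 exceeded Control 1, the pair of the other day, by 1.12. With slide as a fixed block, where this is the only pair of both groups on a slide, the log2 fold change was also 1.12 and the call was lost (adjusted p of 0.771, limma). On the other slides, each of which held 1 group, slide and treatment cannot be told apart. Without Control 2, Control 3, Control 4 or Dex 1, each in turn, the adjusted p rose to between 0.0565 and 0.0702 (limma), and the log2 fold change over all 8 such fits was 1.60 to 1.88. Background correction by normexp with an added offset of 50, which raises dim signals, gave a smaller log2 fold change of 0.86 that still passed.

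Bbc3 encodes Puma, the second of the BH3-only proteins that bind all main survival proteins, known as a contributor to thymocyte death. The array file gives no position for its probe. On Control arrays 1 to 4 the log2 signal was 11.95, 12.15, 12.68 and 12.74, and on Dex arrays 1 to 4 it was 13.06, 13.07, 12.90 and 13.01. All Dex arrays were above all Control arrays, and Control 3 and Control 4 came closer to the Dex arrays than Control 1 and Control 2 did. Its log2 fold change was 0.63 (SE 0.21), with an interval from 0.14 to 1.12 and an adjusted p of 0.326 (limma). Differences between arrays of the same number were 1.12 and 0.92 for replicates 1 and 2, and 0.21 and 0.27 for replicates 3 and 4. With scaling of each array to its 75th percentile in place of quantile normalization, the groups overlapped.

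Bid encodes a protein that is inactive until caspase 8 or granzyme B cuts it, after which the fragment moves to mitochondria. Its log2 signal was 9.52, 9.66, 9.74 and 9.78 on Control arrays 1 to 4, and 9.07, 9.15, 8.89 and 8.97 on Dex arrays 1 to 4. The Dex arrays were all lower than the Control arrays, and the spread within each group was small, with an SD of 0.118 in Control and 0.114 in Dex. The log2 fold change was -0.66 (SE 0.14), with an interval from -0.99 to -0.32 and an adjusted p of 0.112 (limma). On the linear scale Dex stood at 0.634 of Control. The value was nearly the same on both scan days, at -0.67 among the 6 arrays and -0.63 for Dex 3 against Control 1. Over 21 other settings it ranged from -0.80 to -0.53 and passed in 5 of them, among them normexp with an adjusted p of 0.00579 (limma). The passes also include slide as a random block and the fits without Dex 1 and Dex 2, with or without Control 1. These removals were chosen after the values were seen.

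Bmf encodes a protein that is held at the cytoskeleton by a dynein light chain and released under stress. Its probe lies at chr3:104863084-104863143 on the minus strand of rn3. The log2 signal was 10.18, 9.63, 9.47 and 9.91 on Control arrays 1 to 4, and 11.50, 11.41, 10.63 and 11.31 on Dex arrays 1 to 4. The groups did not overlap, and Dex 3 was the lowest Dex array. The log2 fold change was 1.41 (SE 0.25), with an interval from 0.84 to 1.99 and an adjusted p of 0.0557 (limma), and the fold change was 2.66. Differences between arrays of the same number were 1.32, 1.78, 1.16 and 1.40. Between the scan days the values differed, with a log2 fold change of 1.74 among the 6 arrays and 0.45 for Dex 3 against Control 1. Bmf passed in 7 of 21 other settings, which include normexp (adjusted p of 0.0214, limma), dim probes left out (0.0302) and Dex 3 left out (0.0314). Among the 7 are also array weights, slide as a random block and the removals of Dex 1 and Dex 2, with or without Control 1. Those removals were chosen after the values were seen.

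**Figure D1:**
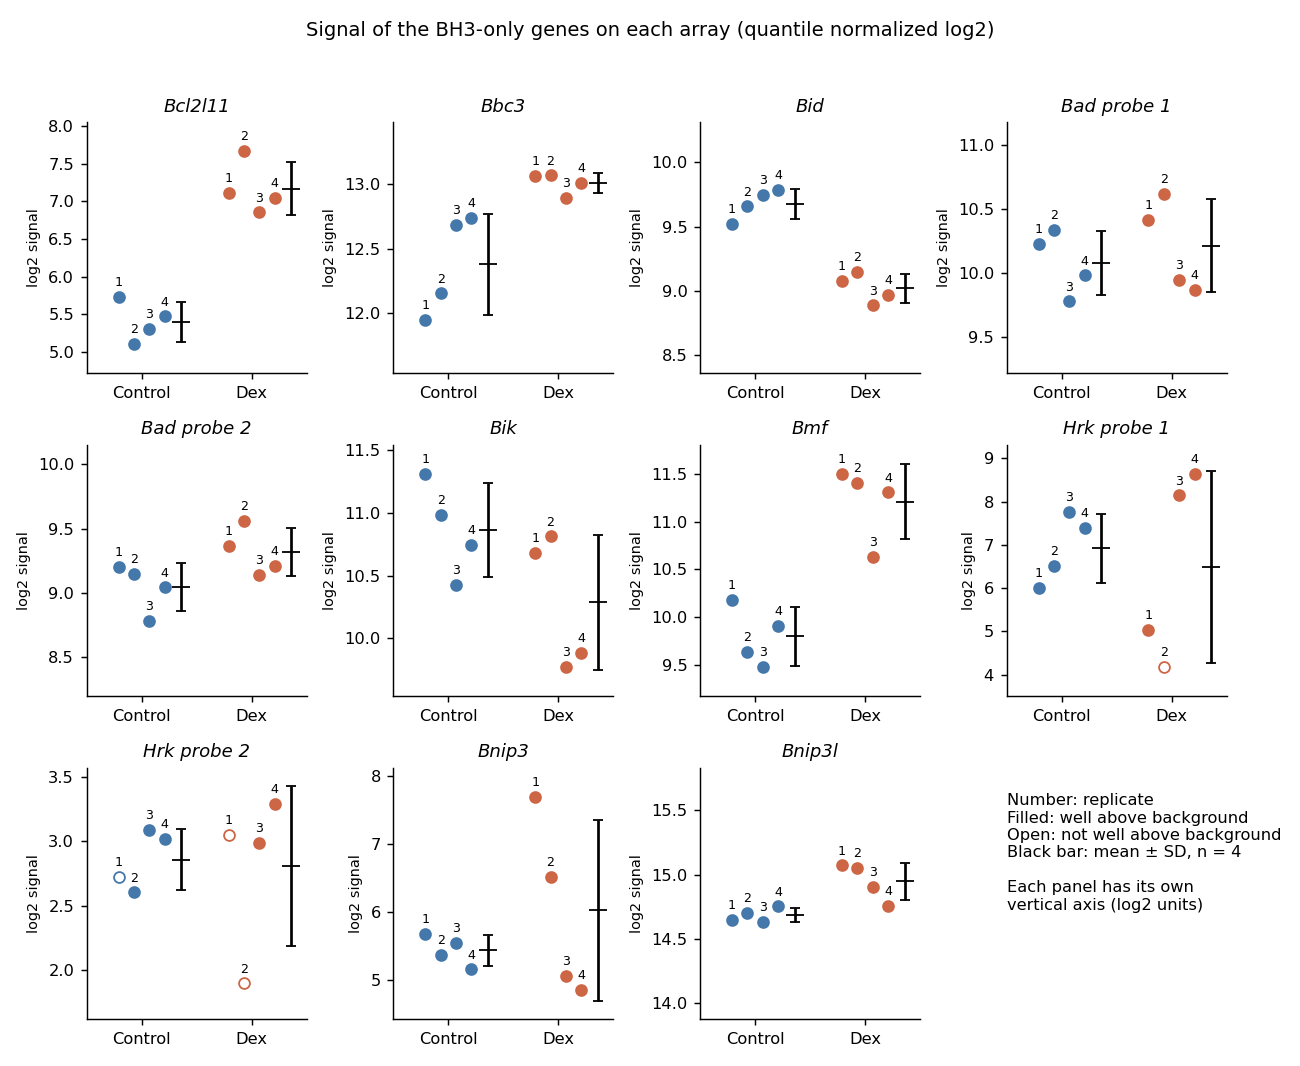
Log2 signal (vertical axis, quantile normalized) of each BH3-only probe on the 4 Control and 4 Dex arrays, numbered by replicate, with the mean ± SD beside each group and open symbols for arrays on which the probe was not well above background. Bcl2l11 (5.40 to 7.17) and Bmf (9.80 to 11.21) sit higher on all Dex arrays and Bid (9.68 to 9.02) lower, whereas probe 1 of Hrk and Bnip3 split the Dex arrays into 1 and 2 against 3 and 4.

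Bad encodes a protein that binds BCL2 and BCL-XL but not MCL1, and that survival kinases keep inactive by phosphorylation. It has 2 probes, at chr1:209784430-209784489 and chr1:209775908-209776403 on the plus strand of rn3, the second over a span longer than the probe itself. Probe 1 read 10.23, 10.33, 9.78 and 9.98 on Control arrays 1 to 4 and 10.42, 10.62, 9.94 and 9.87 on Dex arrays 1 to 4. Probe 2 read 9.21, 9.15, 8.79 and 9.04 in Control and 9.36, 9.56, 9.14 and 9.21 in Dex. With both probes the groups overlapped. The log2 fold changes were 0.13 with an interval from -0.39 to 0.65 (adjusted p of 0.886, limma), and 0.28 with an interval from -0.11 to 0.66 (adjusted p of 0.649, limma).

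Bik encodes a BH3-only protein of the endoplasmic reticulum membrane. Its probe, at chr7:121411239-121411298 on the minus strand of rn3, read 11.31, 10.98, 10.42 and 10.74 on Control arrays 1 to 4 and 10.68, 10.81, 9.77 and 9.88 on Dex arrays 1 to 4. The groups overlapped, although within each of the 4 replicate numbers the Dex array was the lower one, with differences from -0.86 to -0.17. For Bik the log2 fold change was -0.58 (SE 0.31), with an interval from -1.29 to 0.13 and an adjusted p of 0.582 (limma). It was -0.26 among the 6 arrays of one scan day and -1.54 for Dex 3 against Control 1.

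Hrk, also called Harakiri or Dp5, encodes a BH3-only protein best known from neurons, where loss of trophic support induces it. Its probes lie at chr12:39386201-39386260 and chr12:39383936-39383995 on the minus strand of rn3. Probe 1 read 6.00, 6.51, 7.77 and 7.39 on Control arrays 1 to 4 and 5.03, 4.18, 8.15 and 8.63 on Dex arrays 1 to 4. Dex 1 and Dex 2 were thus below, and Dex 3 and Dex 4 above, all Control arrays, with an SD of 2.22 in Dex against 0.805 in Control. For this probe the log2 fold change was -0.42 (SE 1.02), with an interval from -2.78 to 1.93 and an adjusted p of 0.920 (limma). Probe 1 was well above background on 4 Control and 3 Dex arrays, and probe 2 on 3 Control and 2 Dex arrays. Probe 2 read 2.60 to 3.09 in Control and 1.90 to 3.29 in Dex, with a log2 fold change of -0.05 (adjusted p of 0.970, limma). The direction of both probes turned under several settings, among them normexp, with 0.00477 for probe 1 and 0.00888 for probe 2.

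Bnip3 is induced by hypoxia and encodes a receptor in the outer mitochondrial membrane. Its probe, at chr1:198833427-198833486 on the minus strand of rn3 and annotated to 3 transcripts, read 5.68, 5.36, 5.54 and 5.15 on Control arrays 1 to 4 and 7.69, 6.51, 5.05 and 4.85 on Dex arrays 1 to 4. Dex 1 and Dex 2 lay above all Control arrays while Dex 3 and Dex 4 lay below them. With scaling to the 75th percentile Dex 1 and Dex 2 were still above all Control arrays, but Dex 3 was also above them, at 5.71, and Dex 4 was among them, at 5.62. The log2 fold change was 0.59 (SE 0.59), with an interval from -0.77 to 1.96 and an adjusted p of 0.789 (limma). Dex 1 and Dex 2 were the arrays with the fewest probes well above background, and the part of this in the values of Hrk and Bnip3 was not tested. Without Dex 1 and Dex 2, a choice made after the values were seen, the log2 fold change was -0.48 for Bnip3 and 1.47 for probe 1 of Hrk, with adjusted p of 0.133 and 0.0963 (limma).

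Bnip3l, also called Nix, encodes the related receptor by which maturing red cells clear their mitochondria. Its probe, at chr15:46532461-46532520 on the minus strand of rn3, read 14.65, 14.70, 14.63 and 14.75 on Control arrays 1 to 4 and 15.07, 15.05, 14.90 and 14.76 on Dex arrays 1 to 4. Dex 4 was hardly above the highest Control array, so that the groups barely separated. For Bnip3l the log2 fold change was 0.26 (SE 0.14), with an interval from -0.06 to 0.59 and an adjusted p of 0.590 (limma). With scaling to the 75th percentile the groups overlapped.

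**Figure D2:**
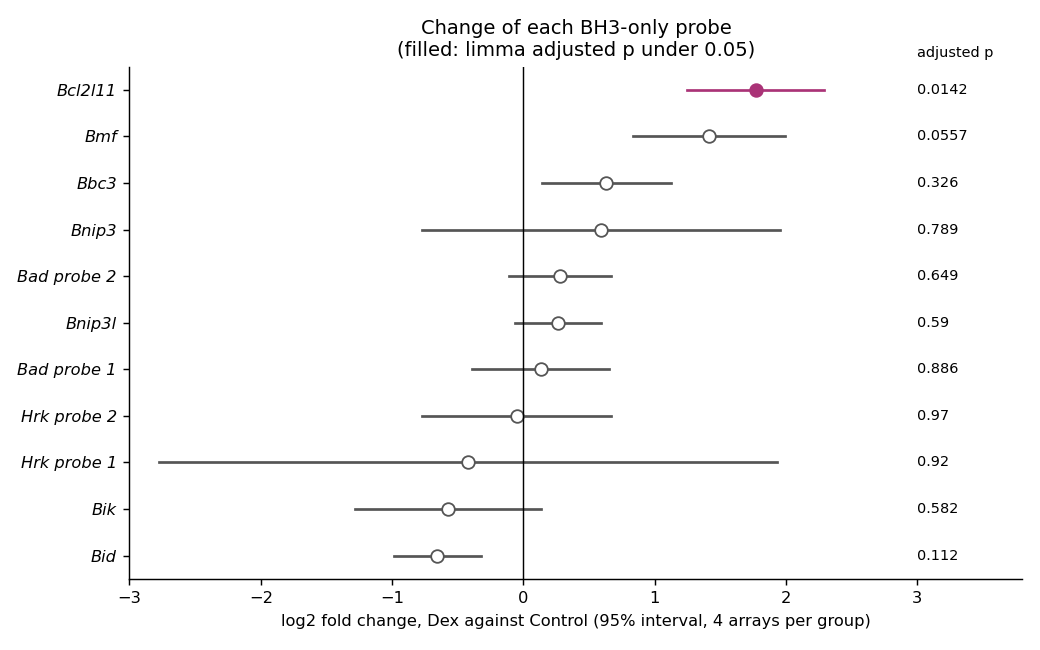
Log2 fold change of Dex against Control (horizontal axis, log2 units) for each of the 11 BH3-only probes, with its 95% interval from limma over 4 arrays per group and the adjusted p at the right. The filled point is Bcl2l11, at 1.77 with an adjusted p of 0.0142; the intervals of Bmf, Bbc3 and Bid also leave out 0, though their adjusted p of 0.0557, 0.326 and 0.112 did not pass.

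Counted by the brightest probe of each gene, 6 of the 9 genes had a log2 fold change above 0 and 3 below. Of the 9 genes 1, or 11.1%, passed at an adjusted p under 0.05 (limma), against 0.778% of all 41012 probes in either direction and 0.563% in the higher direction. At an unadjusted p under 0.05, the count was 4 of 9 genes, against 4327 of all 41012 probes. The median log2 fold change was 0.26, and over all probes it was 0.00033. The Control and Dex arrays did not overlap for 5 of the 9 genes, namely Bcl2l11, Bbc3, Bmf and Bnip3l on the higher side and Bid on the lower side, or 55.6%, against 9.11% of all probes. With scaling to the 75th percentile this count was 3, Bcl2l11, Bmf and Bid, against 7.37% of all probes. The signal to noise statistic named in the study's methods, with limits of 0.01 on its nominal p and 1.2 on the fold change in either direction, called the same 5 genes, against 6.79% of all probes.

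The direct partners of the BH3-only proteins showed a single call. Of 6 survival genes of the BCL2 type, all on the array, 4 had log2 fold changes above 0 and 2 below, with a median of 0.20. Bcl2l1, which encodes BCL-XL, fell by 1.04 log2 units (SE 0.15), from 12.84 ± 0.11 to 11.80 ± 0.14 (SD, n = 4 each), with an adjusted p of 0.0232 (limma) for its brightest probe. Its log2 signal was 12.70, 12.92, 12.92 and 12.84 on Control arrays 1 to 4 and 11.91, 11.91, 11.60 and 11.79 on Dex arrays 1 to 4, without overlap. The other 3 probes of Bcl2l1 gave -0.59, 0.54 and -0.76 and did not pass, and the call of the brightest was lost with the replicate block (adjusted p of 0.148, limma), with slide as a fixed block (0.771), with scaling to the 75th percentile (0.304), among the 6 arrays of one scan day (0.130) and without any one of the arrays (0.0555 to 0.112). The 3 pore formers Bax, Bak1 and Bok had log2 fold changes of 0.08, 0.03 and 0.41, none of which passed.

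Other genes with a stretch like the BH3 domain were less well covered. Of 9 on the list 6 were on the array, 2 above and 4 below 0, and none passed. One of them, Bcl2l14, was well above background on 2 Control arrays and on no Dex array, so no fold is given. Beclin 1, the autophagy protein encoded by Becn1, had a log2 fold change of -0.12.

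Among 8 measured transcription factors known to act on BH3-only genes, 7 had a log2 fold change above 0 and 1 below, with a median of 0.31, and none passed. The furthest was Nr3c1, the glucocorticoid receptor itself, at 0.81 (SE 0.17) with an adjusted p of 0.0951 (limma), and its Dex arrays, from 11.05 to 11.53, lay above its Control arrays, from 10.39 to 10.65. Foxo3, whose product is known to drive Bcl2l11 transcription, had a log2 fold change of 0.24 (adjusted p of 0.769, limma). Hif1a, which acts on Bnip3, stood at 0.39 (adjusted p of 0.412, limma).

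Of 17 genes for proteins that bind or modify BH3-only proteins, 15 were on the array, with 4 above and 11 below 0, a median of -0.19 and no call. Dynll1, the dynein light chain that tethers Bim, was lowest at -0.91 (SE 0.16; adjusted p of 0.0582, limma). Its log2 signal was 13.25, 13.03, 12.99 and 12.69 on Control arrays 1 to 4 and 12.14, 12.12, 12.10 and 11.96 on Dex arrays 1 to 4, so that the groups did not overlap. Dynll2, the light chain that tethers Bmf, had a log2 fold change of -0.31 (adjusted p of 0.714). Casp8, which cuts Bid, stood at -0.70 (adjusted p of 0.295), and Akt1, a kinase of Bad, at -0.40 (adjusted p of 0.330, all limma). In this list the arrays of the groups did not overlap for 5 of 15 genes, against 9.11% of all probes.

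Mitophagy partners of Bnip3 and Bnip3l numbered 8 on the array, with 6 above and 2 below 0, a median of 0.11 and no call, and the furthest was Gabarap at 0.37 (adjusted p of 0.405, limma). Here the arrays of the groups did not overlap for 4 of 8 genes, against 9.11% of all probes, with Map1lc3b, Gabarap and Pink1 higher and Gabarapl2 lower in Dex. Of 9 genes for the mitochondrial death steps that follow BH3-only proteins, 3 were above and 6 below 0, with a median of -0.08 and no call. Cycs, which encodes cytochrome c, stood at -0.51 (adjusted p of 0.227, limma). As a gauge of the hormone's action, 6 of 9 known glucocorticoid targets, against 0.563% of all probes, rose, namely Tsc22d3, Fkbp5, Nfkbia, Klf9, Dusp1 and Ddit4, by 1.41 to 3.73 log2 units. The other 3 did not pass. Sgk1, a kinase gene, was lower on every Dex array than on every Control array, at -1.32 (adjusted p of 0.0503, limma), Per1 stood at 0.73 (0.270) and Zbtb16, well above background on 3 Control and 2 Dex arrays, at 0.29 (0.773). Of the 6, the call of Nfkbia was lost with the replicate block (adjusted p of 0.0673, limma) and among the 6 arrays of one scan day (0.0793), and those of Fkbp5, Nfkbia and Klf9 with scaling to the 75th percentile (0.0528, 0.0989 and 0.0657). With slide as a fixed block the calls of all 6 were lost (0.124 to 0.771).

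**Figure D3:**
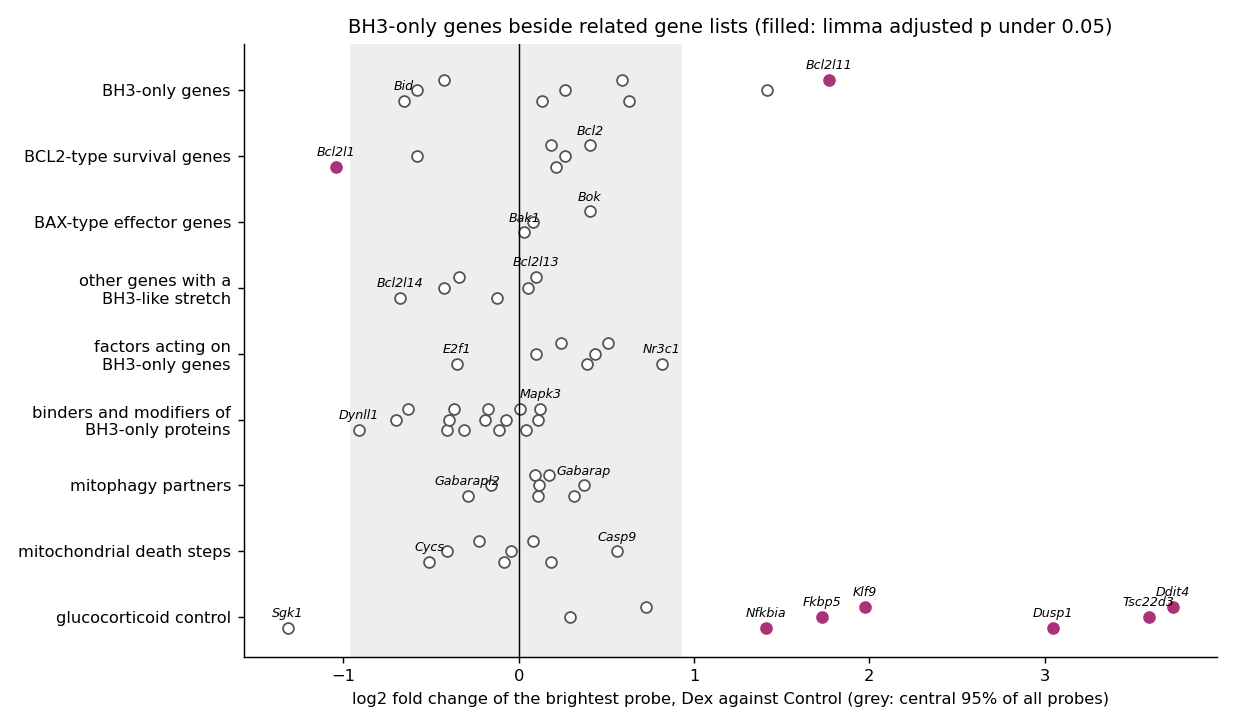
Log2 fold change of Dex against Control (horizontal axis, log2 units) for the brightest probe of each gene shown, grouped by gene list, over the central 95% of all probes in grey (-0.96 to 0.93); filled points passed at an adjusted p under 0.05 (limma). Outside the 6 glucocorticoid targets the only filled points are Bcl2l11 at 1.77 and Bcl2l1 at -1.04, and Bcl2l14 is plotted although no Dex array was well above background for it.

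Bcl2l11 was compared with 12066 other genes whose brightest probe was well above background on all 8 arrays. The highest correlations of log2 signal with it over the 8 arrays were those of Qtrt1 at 0.993, RGD1305809 at 0.991, RGD1308881 at 0.990, Tax1bp3 at 0.990 and Pfkp at 0.988. Pfkp, which encodes a phosphofructokinase of glycolysis, was the only one of these to pass between the groups, at a log2 fold change of 1.18 (adjusted p of 0.0185, limma). The arrays fall into 2 groups and share depth and slides, so these values describe the order of the arrays and carry no test.

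**Figure D4:**
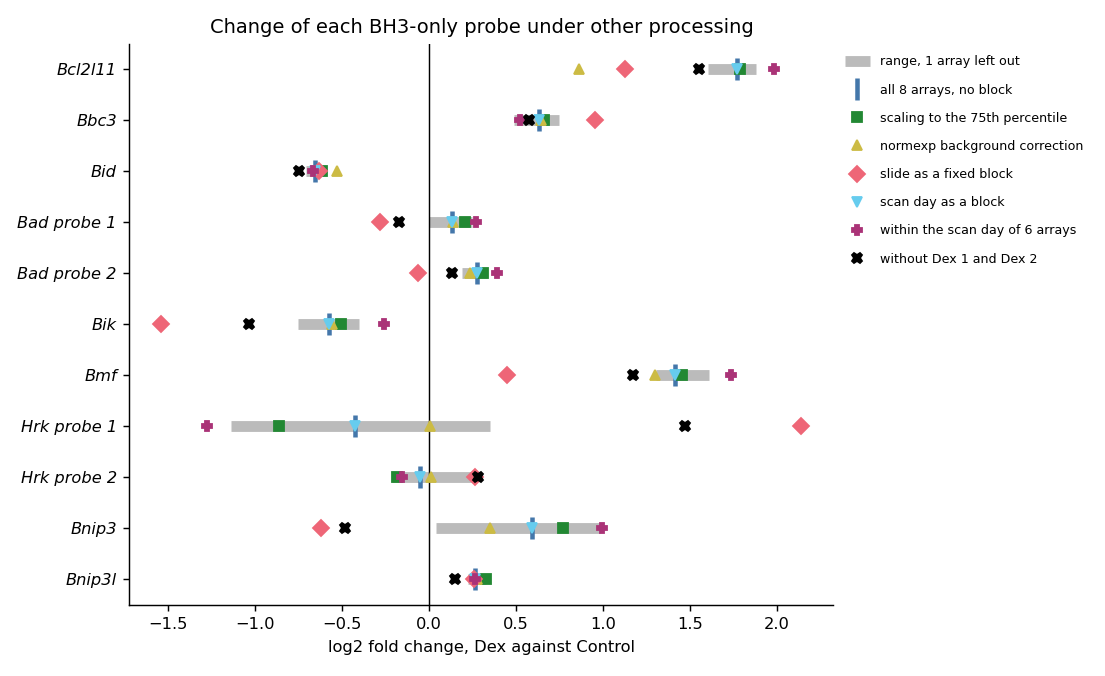
Log2 fold change of Dex against Control (horizontal axis, log2 units) for each BH3-only probe with all 8 arrays (bar), over the range with 1 array left out (grey) and under 6 other settings (symbols). Bcl2l11, Bmf and Bbc3 stay above 0 and Bid and Bik below it in all of them, while Hrk, Bnip3 and Bad cross 0.

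The pattern of the settings separates the 9 genes into those with one direction and those without. Over 21 other settings Bcl2l11 ranged from 0.86 to 1.98 and passed in 14, Bmf from 0.45 to 1.74, Bbc3 from 0.43 to 0.95, Bnip3l from 0.14 to 0.33, Bid from -0.80 to -0.53 and Bik from -1.54 to -0.26. None of these 6 changed sign, and Bbc3 and Bnip3l passed in none of the limma fits. Bad, Hrk and Bnip3 changed sign in at least 1 setting, with a range from -0.28 to 0.27 for probe 1 of Bad, from -1.28 to 2.14 for probe 1 of Hrk and from -0.62 to 1.25 for Bnip3. The settings are not separate checks, so the counts of passes overstate their number. For Bcl2l11 the authors' own log2 table and the fit with outlier spots kept gave the same 1.77 as each other, close to the main fit. Its passes also include removals of Dex 1 and Dex 2, chosen after the values were seen.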

How the data were processed

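Per the file headers, the authors read spot intensities with Feature Extraction version 9.5.3.1 at 1-color defaults, and deposited these intensities without normalization between arrays. Flags of the software, deposited as scores of 0 or 1, mark spots well above background, outliers and saturated spots, of which there were 0. The authors also deposited a log2 table after quantile normalization and a median polish over the spots of each probe. These steps were repeated on log2 of the 43379 spots, with flagged outliers left out (16 missing values among 41012 probes), and gave correlations of 0.99999901 or more with that table.

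limma version 3.58.1 in R version 4.3.3 compared 4 Dex with 4 Control arrays, two-sided, with lmFit and eBayes, no block, and a threshold of 0.05 after Benjamini-Hochberg adjustment over all probes. The procedure was tested on simulated data. The brightest probe stands for a gene. Genes named from a list are those called and otherwise the one furthest from 0, and other list genes were named for their role, with their values known. The values of 2 list genes are not reported here. Deviations from the group mean correlated between arrays of one replicate number at 0.397, 0.129, 0.550 and 0.184, all above 0.1, so a second fit, not the source of the main values, took the numbers as pairs by a replicate block, and it is given where it changed a call. The number of arrays limits the precision. Members and lists were chosen with earlier results of these data known. Positions are those of build rn3 in the file headers, and RefSeq names and promoters those of GRCr8.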

Additional observations from a re-analysis of the deposited data

How the results depend on the processing

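The test over all probes called 319 probes and 1 of the 9 BH3-only genes. The pairing by replicate number, fitted as a replicate block, called 81 probes and 0 of the genes, and among the BH3-only genes it changed no call other than that of Bcl2l11. Among the called genes of the other lists, those of Bcl2l1 and Nfkbia were lost. Slide as a fixed block called 1 and 0, slide as a random block (correlation -0.235) 1838 and 3, and scan day as a block 190 probes. Scaling to the 75th percentile called 166 probes, normexp 912 and 3, leaving out dim probes 562 and 3, and array weights 2 genes. The signal to noise statistic called 2784 and 5. Leaving out 1 array at a time gave 96 to 249 probes and 0 to 2 genes. The count of probes fell to 127, 113, 117 and 96 without Control 1, 2, 3 and 4, and to 134, 170 and 161 without Dex 1, 2 and 4. Chosen after seeing the data, the 6 arrays of one scan day gave 56 and 0, leaving out Control 1, Dex 1 and Dex 2, the arrays with the fewest probes above background, 4671 and 3, and leaving out Dex 1 and Dex 2 alone 7143 and 4. In the last of these Bik passed at -1.04 (adjusted p of 0.0415, limma).

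Directions turned only for values that had not passed. With slide as a fixed block the log2 fold change was -0.28 and -0.063 for probes 1 and 2 of Bad, 2.14 and 0.27 for those of Hrk, -0.62 for Bnip3 and -0.082 for Bok. With normexp the probes of Hrk gave 0.00477 and 0.00888. Without Dex 1, probe 1 of Hrk gave 0.07, and without Dex 2 it gave 0.35, probe 2 gave 0.25 and probe 1 of Bad -0.00326. Without Control 3 and without Control 4, probe 2 of Hrk gave 0.03 and 0.0019. With 1 array left out at a time, probe 1 of Hrk ranged from -1.14 to 0.35 and probe 2 from -0.21 to 0.25. Without Control 1, Dex 1 and Dex 2 the values were -0.12 for probe 1 of Bad, 1.17 and 0.24 for the probes of Hrk and -0.40 for Bnip3. Without Dex 1 and Dex 2 they were -0.17, 1.47, 0.28 and -0.48. The cause was not tested. Probe 1 of Hrk was well above background on 7 of 8 arrays and probe 2 on 5 of 8.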
